A study of Mus musculus with 4 samples.

Results

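The 46 genes described here are imprinted genes of the mouse, a list of 17 imprinted domains chosen by name. The rule holds no value of these arrays, but the list was chosen with earlier results of these data known. A gene was measured through every array probe whose RefSeq accession carries its symbol. Of the 46 genes, 44 had a probe, 73 probes in all, among 20660 genes named on the array. The probe tables used here gave no probe for H19 or Rian, which were not analysed here. Of the 44 genes, 38 were tested, among 13433 genes tested in all. The other 6 had a probe but no fraction in which it was well above background on both arrays.

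Total RNA was measured on 4 one-colour Agilent arrays, 2 for each of a pair of sorted fractions. RFP-positive cells, which carried the red fluorescent signal of a Hoxb6-RFP reporter, were compared with RFP-negative cells, which did not. Both fractions came from EB5 mouse embryonic stem cells carrying that reporter, were differentiated on OP9 feeder cells, a mouse bone marrow stromal line, until day 6, and were sorted as positive for Flk-1, the VEGF receptor encoded by Kdr. Whether the reporter line is 1 clone and whether the replicates were separate cultures are not given in the sources used here, so the spread between replicates may be technical. Kdr was well above background on every array, at log2 levels of 4.41 and 4.36 on the RFP-positive arrays, against 4.18 and 4.33 on the RFP-negative arrays.

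Imprinted genes are transcribed mainly from 1 parental allele, which carries or lacks DNA methylation laid down in the egg or the sperm at a control region. Many lie in clusters in which a long noncoding RNA, such as Kcnq1ot1 or Airn, is made from the paternal allele and genes around it are kept silent on that allele. Several encode growth regulators: Igf2, Igf2r, Grb10, Cdkn1c and Plagl1 act on the growth of the embryo. Expression arrays do not tell the alleles apart, so every level below sums both. The expressed allele named for a gene is the one assigned to it in the list and was not measured in these cells. In bulk samples of this kind, fewer cells of a type and less RNA per cell cannot be told apart either.

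The promoters of 5 genes are given here. Kcnq1ot1, Igf2r, Grb10 and Plagl1 stood higher in RFP-positive cells with the widest gaps between the nearest arrays, 1.26, 0.70, 0.87 and 0.45 on the log2 scale, and Slc22a18 was well above background in RFP-negative cells alone. Each runs 5′ to 3′ from 250 bases before to 50 bases after the transcription start, as RefSeq gives it for build GRCm38.p6, and capitals mark the letters CG, the dinucleotide that is methylated. Kcnq1ot1 lies at chr7:143296498-143296797 on the minus strand, Slc22a18 at chr7:143473539-143473838 on the plus strand, Igf2r at chr17:12769657-12769956 on the minus strand, Grb10 at chr11:12037371-12037670 on the minus strand, and Plagl1 at chr10:13090582-13090881 on the plus strand.
Kcnq1ot1: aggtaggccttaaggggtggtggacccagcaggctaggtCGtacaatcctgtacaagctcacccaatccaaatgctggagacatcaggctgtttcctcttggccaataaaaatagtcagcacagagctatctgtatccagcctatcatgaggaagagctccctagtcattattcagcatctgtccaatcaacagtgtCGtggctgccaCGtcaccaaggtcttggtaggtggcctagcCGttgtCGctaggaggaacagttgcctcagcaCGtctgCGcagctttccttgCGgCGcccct
Slc22a18: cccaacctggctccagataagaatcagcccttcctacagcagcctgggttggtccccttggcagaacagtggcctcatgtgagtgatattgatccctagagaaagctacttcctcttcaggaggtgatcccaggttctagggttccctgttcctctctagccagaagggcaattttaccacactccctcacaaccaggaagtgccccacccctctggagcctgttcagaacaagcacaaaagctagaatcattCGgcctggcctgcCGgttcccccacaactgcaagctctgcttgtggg
Igf2r: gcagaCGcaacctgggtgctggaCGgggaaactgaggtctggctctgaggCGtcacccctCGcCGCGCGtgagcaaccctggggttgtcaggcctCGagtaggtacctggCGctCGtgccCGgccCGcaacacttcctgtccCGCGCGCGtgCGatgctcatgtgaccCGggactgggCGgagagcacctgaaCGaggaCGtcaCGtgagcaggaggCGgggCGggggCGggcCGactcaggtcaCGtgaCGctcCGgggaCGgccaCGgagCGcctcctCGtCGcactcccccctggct
Grb10: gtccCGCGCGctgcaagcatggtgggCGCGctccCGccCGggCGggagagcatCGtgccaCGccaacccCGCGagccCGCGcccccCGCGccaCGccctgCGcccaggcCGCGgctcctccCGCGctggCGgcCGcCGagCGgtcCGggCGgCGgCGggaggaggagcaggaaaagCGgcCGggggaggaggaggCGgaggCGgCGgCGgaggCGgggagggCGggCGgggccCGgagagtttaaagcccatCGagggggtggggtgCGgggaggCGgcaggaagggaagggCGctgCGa
Plagl1: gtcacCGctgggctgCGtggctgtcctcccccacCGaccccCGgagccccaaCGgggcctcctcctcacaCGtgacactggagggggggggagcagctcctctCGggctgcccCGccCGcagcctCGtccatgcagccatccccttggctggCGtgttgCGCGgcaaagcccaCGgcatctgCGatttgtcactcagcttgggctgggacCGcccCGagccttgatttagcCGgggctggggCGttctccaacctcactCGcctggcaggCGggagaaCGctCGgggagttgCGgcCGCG

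The 5 promoters held 9, 2, 34, 45 and 26 CG dinucleotides in the order shown. Grb10 has 2 starts in the table, and the window of the start not shown held 9, without the motif searched below. The Grb10 window shown had more than most: 1.93% of the 32851 RefSeq promoters held as many. For Igf2r that share was 7.73%, for Plagl1 16.9%, for Kcnq1ot1 45.8% and for Slc22a18 85.9%. The motif TGCCGC, which the imprint-protecting zinc finger protein ZFP57 binds, was searched on both strands and matched once in the Grb10 window and once in the Plagl1 window, and not in the other 3. Over the 39 imprinted genes with a promoter in the table, 14 of 59 promoters (23.7%) held it, against 11.6% of all promoters. These 14 belong to 13 genes, since 2 almost identical Mest windows both count. The median count of CG dinucleotides was 13, against 7 for all promoters. The motif holds a CG itself, and the shares were not adjusted for the count of CG dinucleotides. These are letter matches in windows around starts, and the methylation of these cells was not measured.

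Levels are given as log2 of the scanner's processed signal relative to the array's 75th percentile, for the brightest probe of each gene, and a difference is the RFP-positive mean minus the RFP-negative mean. No imprinted gene passed the limma test at an adjusted p of 0.05, and none of the 13433 genes did (0%), while 872 had an unadjusted limma p below 0.05. The smallest adjusted p by limma was 0.581 among the imprinted genes and 0.110 among all genes. At an unadjusted p below 0.05, limma listed 4 of the 38, against a background of 6.49% of all genes tested: 3 were higher in RFP-positive cells (background 2.77%) and 1 was lower (background 3.72%). The lower gene was Slc22a18, which passed the filter only through RFP-negative cells. Of the 37 imprinted genes above background on all 4 arrays, limma listed 3 higher and 0 lower. Over the 12420 genes of that kind it listed 276 higher and 309 lower. With 2 arrays a fraction the counts below therefore describe how the 4 arrays are ordered.

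Both RFP-positive arrays lay on the same side of both RFP-negative arrays for 16 of the 38 genes, 42.1%, which is close to the background of 40.3%. Of these, 10 were higher in RFP-positive cells (background 18.8%) and 6 were lower (background 21.6%). By the signals as read, every pair of arrays was at least 2-fold apart for 2 genes, against a background of 1.36%: Kcnq1ot1 was higher (background 0.469%) and Slc22a18 lower (background 0.893%). A 2-fold difference is not shown for Slc22a18, which was not well above background in RFP-positive cells, passed the filter only through RFP-negative cells and has only a bound. On the 37 genes whose probe was above background throughout, 1 was 2-fold apart (background 0.459%) and 15 did not overlap, 40.5% against a background of 39.4%. The differences of these 37 ran between −0.70 and 1.52. Over the 38 the median was 0.04 and the median size 0.31. Over all genes tested the median difference was −0.05 and the median size 0.27. Leaving out RFP-positive replicate 1 or 2 moved the count without overlap to 34 or 30, where fewer arrays have to be in order and the backgrounds were 81.3% and 66.4%. The count at least 2-fold apart was 8 without RFP-positive replicate 1 (background 10.95%) and 4 without RFP-negative replicate 2 (background 2.89%).

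**Figure D1:**
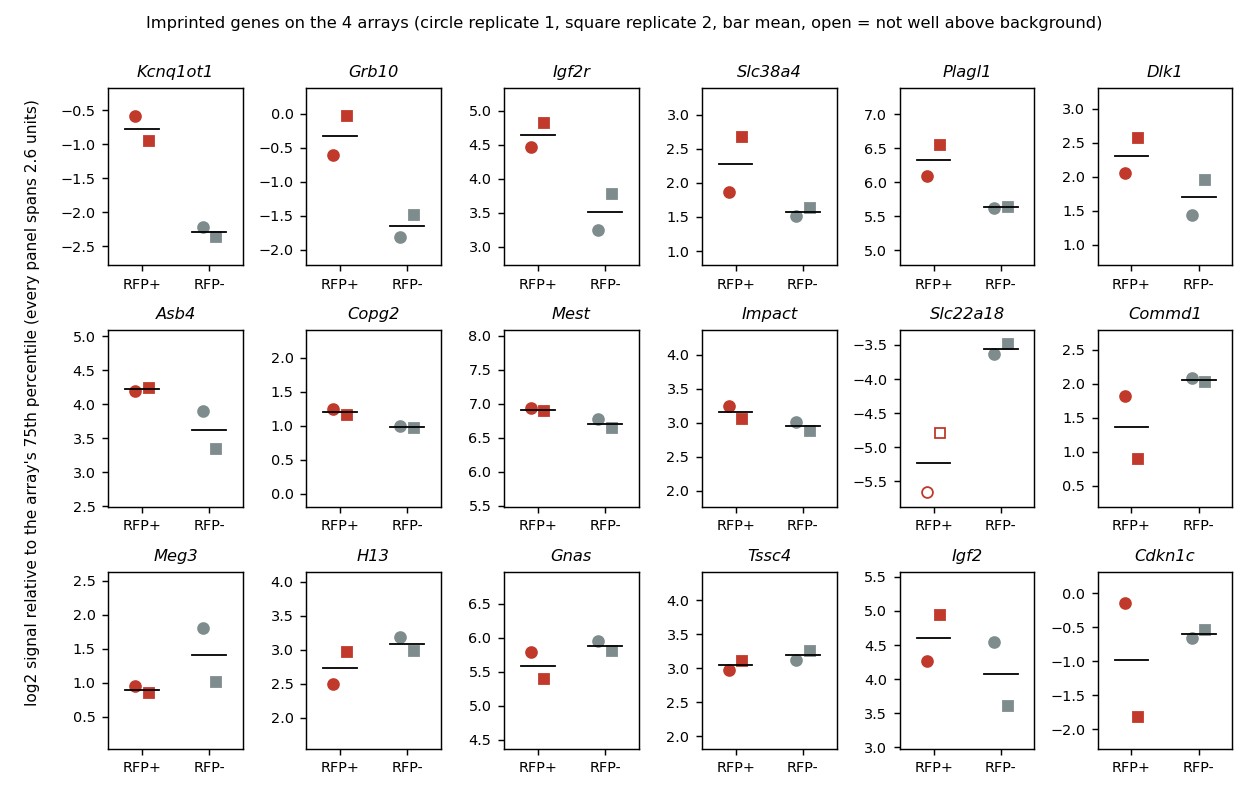
Log2 signal relative to the array's 75th percentile of 18 imprinted genes on the 4 arrays, with RFP-positive (RFP+) left of RFP-negative (RFP-), the mean as a bar and open symbols not well above background. Kcnq1ot1, Grb10 and Igf2r stand apart with both RFP-positive arrays high, Slc22a18 has both RFP-positive arrays open, and Igf2 and Cdkn1c overlap.

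The Kcnq1ot1 domain held the member with the widest gap between its arrays. Kcnq1ot1, the paternally expressed noncoding RNA that silences its neighbours on that allele, had levels of −0.58 and −0.96 on the RFP-positive arrays, against −2.21 and −2.37 on the RFP-negative arrays. Both RFP-positive arrays lay above both RFP-negative ones, and the RFP-positive mean was 2.87-fold higher (log2 difference 1.52 ± 0.26 SE, n = 2 arrays each, limma adjusted p = 0.581). With normexp background correction, which adds an offset of 50 to every signal, the difference was 0.75. A second Kcnq1ot1 probe read −2.32 and −1.56 in RFP-positive cells, against −4.20, not well above background, and −2.57 in RFP-negative cells. Its difference was 1.44, so both probes of this RNA placed RFP-positive cells higher.

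Of its 6 maternally expressed neighbours tested, 5 had negative differences, and Slc22a18 and Tssc4 did not overlap. Over all genes tested, 7355 of 13433 had negative differences and 21.6% were lower without overlap. A link between the levels of Kcnq1ot1 and of its neighbours was not tested. Slc22a18, which encodes an organic cation transporter-like protein, had levels of −5.67 and −4.79 on the RFP-positive arrays, both not well above background, against −3.63 and −3.49 on the RFP-negative arrays, both well above it. As a bound, its level was 1.62-fold lower in RFP-positive cells (fitted log2 difference −1.67 ± 0.36 SE, limma adjusted p = 0.655). That bound leaves out the spread between arrays and depends on the processing: with normexp background correction the fitted difference was −0.37, smaller than the bound of −0.69. The bound sets the RFP-negative mean against, on each RFP-positive array, the higher of the lowest signal well above background and the probe's own. Tssc4, an RNA-splicing factor gene, had levels of 2.98 and 3.11 in RFP-positive cells, against 3.12 and 3.26 in RFP-negative cells, and the nearest arrays were 0.007 apart. The Tssc4 difference, −0.14, was −0.075 without RFP-positive replicate 1 and −0.074 without RFP-negative replicate 2.

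Cdkn1c, the cyclin-dependent kinase inhibitor p57, split within the RFP-positive fraction. Its levels were −0.14 and −1.82 there, against −0.66 and −0.54 in RFP-negative cells, so the fractions overlapped (log2 difference −0.38 ± 0.59 SE, limma adjusted p = 0.858). Phlda2, a growth-restraining gene of the placenta, had 1.19 and 0.36 in RFP-positive cells, against 1.36 and 1.03 in RFP-negative cells. Osbpl5, a lipid-binding protein gene, differed by 0.20, and Nap1l4, a histone chaperone gene, by −0.16, both with overlapping arrays. Nap1l4 read 2.81 and 2.26 in RFP-positive cells, against 2.75 and 2.64 in RFP-negative cells, while its other probe gave a difference of 0.06. Ascl2, a transcription factor of the placenta, was well above background on 1 array alone, RFP-positive replicate 2, and was not tested.

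In the Igf2r-Airn domain the maternally expressed Igf2r was high on both RFP-positive arrays. Igf2r encodes the receptor that binds IGF2 and carries it to lysosomes for breakdown. Its levels, each the mean of 10 spots, were 4.47 and 4.83 in RFP-positive cells, against 3.24 and 3.77 in RFP-negative cells. The fractions did not overlap, with a mean 2.21-fold higher in RFP-positive cells (log2 difference 1.14 ± 0.30 SE, n = 2 arrays each, limma adjusted p = 0.704).

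Airn, the paternally expressed noncoding RNA that overlaps Igf2r in antisense, had levels of 0.45 and 0.35 in RFP-positive cells, against 0.09 and 0.36 in RFP-negative cells. RFP-negative replicate 2 lay within the RFP-positive values, and a second Airn probe gave a difference of −0.08, against 0.18 for the first. Slc22a2, an organic cation transporter gene, passed the scanner's background mark on a single array, RFP-positive replicate 2, and its paralogue Slc22a3 on none.

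Igf2, the fetal growth factor that binds Igf2r, was the 1 measured member of the Igf2-H19 pair. Its levels were 4.26 and 4.94 in RFP-positive cells, against 4.54 and 3.61 in RFP-negative cells. RFP-negative replicate 1 lay between the RFP-positive arrays, and the difference of 0.53 ± 0.43 SE had a limma adjusted p of 0.777. It depended on single arrays, at 0.99 without RFP-negative replicate 1, 0.06 without RFP-negative replicate 2, 0.87 without RFP-positive replicate 1 and 0.19 without RFP-positive replicate 2.

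Grb10 and Plagl1, each alone in its domain here, were also high in RFP-positive cells. Grb10, an adaptor that restrains insulin and IGF receptor signalling, had −0.61 and −0.03 in RFP-positive cells, against −1.82 and −1.48 in RFP-negative cells. The RFP-positive mean was 2.51-fold higher without overlap (log2 difference 1.33 ± 0.31 SE, n = 2 arrays each, limma adjusted p = 0.659), and the difference was 0.77 with normexp. Plagl1, a zinc finger transcription factor, had 6.09 and 6.55 in RFP-positive cells, against 5.62 and 5.64 in RFP-negative cells, 1.62-fold higher (log2 difference 0.69 ± 0.27 SE, limma adjusted p = 0.745).

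Of the 4 Plagl1 probes, the 2 brightest placed RFP-positive cells higher, by 0.69 and 0.64 without overlap. The dimmer 2 each gave 0.14 with overlapping arrays, and the mean of the probes gave 0.40. Slc38a4, an amino acid transporter expressed from the paternal allele, had 1.86 and 2.68 in RFP-positive cells, against 1.51 and 1.64 in RFP-negative cells. The fractions of Slc38a4 did not overlap (log2 difference 0.70 ± 0.35 SE, limma adjusted p = 0.750), though the value was 1.11 without RFP-positive replicate 1 and 0.29 without RFP-positive replicate 2.

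In the Dlk1-Dio3 domain, coding Dlk1 and noncoding Meg3, which are expressed from opposite parental alleles, stood on opposite sides. Dlk1, a membrane ligand of the Notch family that restrains adipocyte differentiation, had 2.05 and 2.56 in RFP-positive cells, against 1.44 and 1.95 in RFP-negative cells. The nearest arrays of Dlk1 were 0.10 apart (log2 difference 0.61 ± 0.32 SE, limma adjusted p = 0.750), and the difference was 0.36 without RFP-positive replicate 2 and 0.36 without RFP-negative replicate 1. Meg3, the maternally expressed noncoding RNA, had 0.95 and 0.85 in RFP-positive cells, against 1.81 and 1.02 in RFP-negative cells. RFP-negative replicate 1 held Meg3's high value (log2 difference −0.51 ± 0.34 SE, limma adjusted p = 0.753), and the difference was −0.11 without it and −0.91 without RFP-negative replicate 2.

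Other probes of Dlk1 and Meg3 gave other values. A second Dlk1 probe was well above background on 3 of the 4 arrays and read −3.49 and −3.88 in RFP-positive cells, against −3.86 and −2.13 in RFP-negative cells. Its difference was −0.69, opposite to that of the brighter probe, and the mean of both probes gave −0.040. The other 2 Meg3 probes gave −0.10 and −0.16 with overlap. Mirg, a noncoding RNA that hosts miRNAs, differed by −0.09, and Dio3, the enzyme that inactivates thyroid hormone, by −0.03. Rtl1, a retrotransposon-derived gene of the placenta, was well above background on RFP-positive replicate 2 and RFP-negative replicate 1 only.

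**Figure D2:**
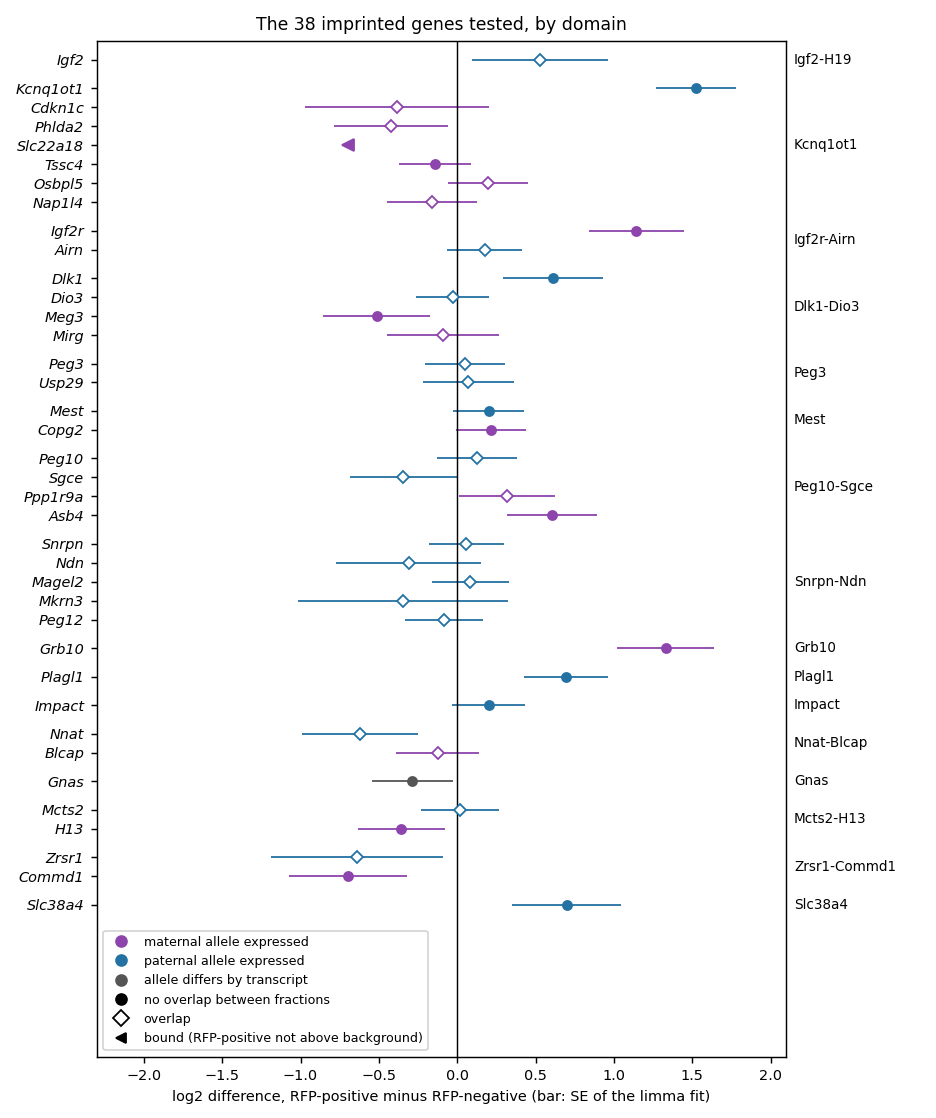
Log2 difference (RFP-positive minus RFP-negative) with its limma standard error for the 38 imprinted genes tested, by domain and expressed allele, filled where the fractions do not overlap. Slc22a18 is drawn as a triangle at its bound of −0.69, since it was not well above background in RFP-positive cells. Kcnq1ot1 stands at 1.52, and the Peg3 and Snrpn-Ndn domains hold no filled point.

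The Mest pair was higher in RFP-positive cells by small amounts. Mest, a hydrolase-family gene marking mesoderm and read on 10 spots, had 6.93 and 6.89 in RFP-positive cells, against 6.78 and 6.64 in RFP-negative cells. Its difference of 0.20 (limma adjusted p = 0.813) came with no overlap and was 0.13 without RFP-negative replicate 2, and its other 2 probes gave 0.09 and −0.02 with overlap. Copg2, a coat protein gene of vesicle transport, had 1.25 and 1.16 in RFP-positive cells, against 1.004 and 0.973 in RFP-negative cells. A second Copg2 probe differed by 0.43 in the same direction, with overlap.

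Of the Peg10-Sgce domain, Asb4 alone did not overlap. Asb4, a ubiquitin ligase adaptor gene of the vascular lineage, had 4.20 and 4.25 in RFP-positive cells, against 3.90 and 3.34 in RFP-negative cells (log2 difference 0.60 ± 0.29 SE, limma adjusted p = 0.745). The difference was 0.32 without RFP-negative replicate 2, and a second Asb4 probe differed by 0.04. Peg10, a retrotransposon-derived gene of the placenta, differed by 0.12 and Sgce, a sarcoglycan gene, by −0.34, both with overlap. Ppp1r9a, which encodes the actin-binding protein neurabin, read 1.39 and 1.55 in RFP-positive cells, against 0.84 and 1.47 in RFP-negative cells, a difference of 0.32. Its dimmer probe gave −0.48, with no overlap, in the opposite direction.

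Impact, a regulator of translation, was the last of the 10 higher genes, at 3.25 and 3.06 in RFP-positive cells, against 3.02 and 2.88 in RFP-negative cells. Its 2 probes gave 0.20 and 0.26, neither with overlap. The nearest arrays of Impact's brighter probe were 0.039 apart, and its difference was 0.11 without RFP-positive replicate 1 and 0.13 without RFP-negative replicate 2.

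No member of the Peg3 and Snrpn-Ndn domains separated the fractions by its brightest probe. Peg3, a zinc finger gene, differed by 0.05 and Usp29, a deubiquitinase gene, by 0.07. Zim1 was well above background on no array. In the Snrpn-Ndn domain, the Prader-Willi region in people, the 5 differences ran between −0.35 for the ubiquitin ligase gene Mkrn3 and 0.08 for Magel2, with Ndn, a growth-restraining MAGE-family gene, at −0.31 and Peg12 at −0.08.

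The Snrpn and Mkrn3 probes disagreed among themselves. Snrpn, which encodes a splicing protein, read 2.24 and 2.49 in RFP-positive cells, against 2.25 and 2.36 in RFP-negative cells, a difference of 0.06. Its other 2 probes gave −0.38, with no overlap, and 0.52, with overlap. Mkrn3 read −1.34 and −3.14 in RFP-positive cells, against −2.26 and −1.52 in RFP-negative cells. Its other probe read −2.11 and −1.52 in RFP-positive cells, against −2.50 and −2.52 in RFP-negative cells, higher by 0.70 with no overlap.

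The remaining domains held the other lower genes. Commd1, a regulator of copper transport and NF-kappaB, had 1.82 and 0.89 in RFP-positive cells, against 2.09 and 2.02 in RFP-negative cells (log2 difference −0.70 ± 0.37 SE, limma adjusted p = 0.750). RFP-positive replicate 2 held most of that difference, which was −0.23 without it and −1.16 without RFP-positive replicate 1. Zrsr1, a paternally expressed splicing factor gene inside Commd1, read 0.42 and −1.13 in RFP-positive cells, against 0.20 and 0.37 in RFP-negative cells. Its RFP-positive replicates split around the RFP-negative ones.

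Gnas encodes the stimulatory G protein alpha subunit and makes several transcripts of different parental origin. It had 5.79 and 5.39 in RFP-positive cells, against 5.95 and 5.80 in RFP-negative cells, with nearest arrays 0.012 apart. The difference, −0.29, was −0.49 without RFP-positive replicate 1 and −0.085 without RFP-positive replicate 2. Its other 2 probes, for other transcripts, gave −0.59 without overlap and −0.62 with overlap, so its 3 probes were of one sign. H13, a signal peptide peptidase, had 2.50 and 2.96 in RFP-positive cells, against 3.19 and 2.98 in RFP-negative cells, a difference of −0.36. Without RFP-positive replicate 1 it was −0.12, and without RFP-positive replicate 2 it was −0.59. The other 3 H13 probes gave 0.53, −0.37 and −0.28, each with overlap.

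Nnat, a membrane proteolipid gene, read 3.85 and 3.23 in RFP-positive cells, against 4.49 and 3.82 in RFP-negative cells, and RFP-positive replicate 1 just passed RFP-negative replicate 2. Blcap, in which Nnat lies, differed by −0.12, and Mcts2, in an intron of H13, by 0.02. Rasgrf1, a Ras exchange factor gene, was well above background on no array.

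**Figure D3:**
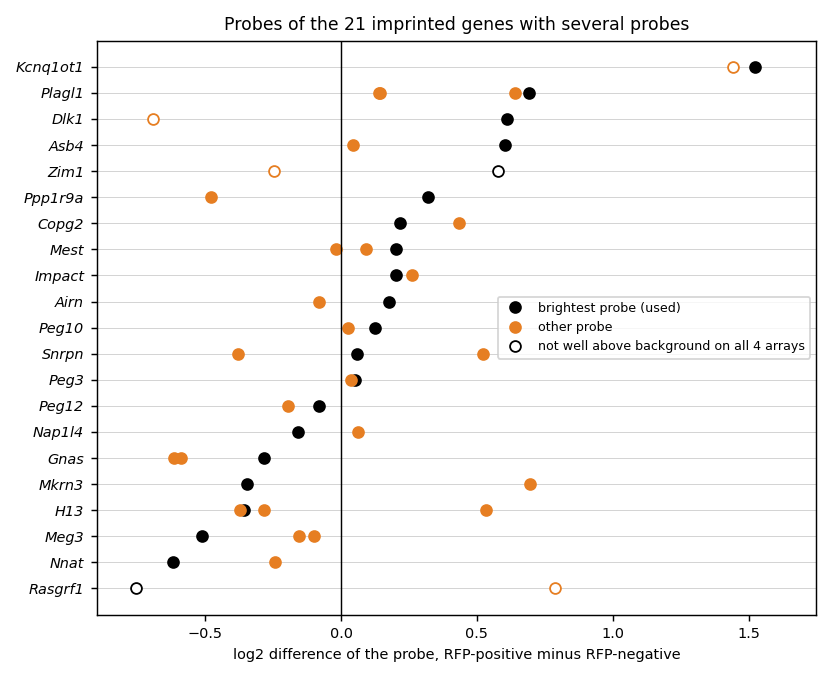
Log2 difference of every probe of the 21 imprinted genes with more than 1 probe, RFP-positive minus RFP-negative, the brightest probe in black and probes not well above background on all 4 arrays open. The probes of Kcnq1ot1 lie together at 1.52 and 1.44, while those of Snrpn, Mkrn3, Ppp1r9a and H13 fall on both sides of 0.

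Agreement between probes can be read for 17 genes for which several probes passed the background mark on every array. For 10 of them all such probes had the same sign, and for 7 (Airn, H13, Mest, Mkrn3, Nap1l4, Ppp1r9a and Snrpn) both signs occurred. Probes of a gene share RNA, so they are not replicates.

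Split by the expressed allele assigned in the list, the 21 paternally expressed genes tested, of 23 listed, had 14 positive and 7 negative differences with a median of 0.07. Over all genes tested, 6078 differences were positive and 7355 negative. Of the paternally expressed genes 6 (28.6%) were higher without overlap and 0 lower, where the shares over all genes were 18.8% higher and 21.6% lower. The 16 maternally expressed genes tested, of 22 listed, had 6 positive and 10 negative differences with a median of −0.13, and 4 (25%) were higher and 5 (31.2%) lower without overlap. The lower genes include Slc22a18, which has only a bound. Gnas, with transcripts of either origin, was lower. The split is a description, and the difference between the 2 sets was not tested.

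**Figure D4:**
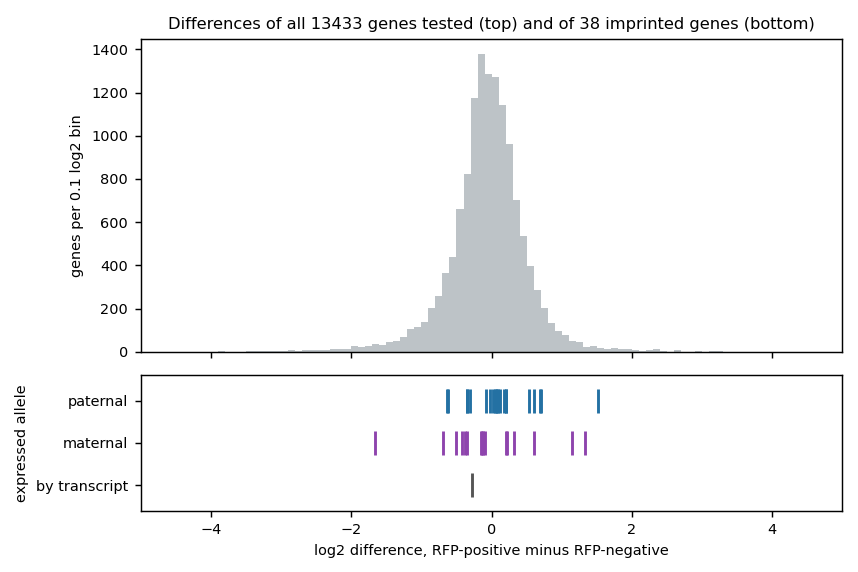
Number of genes per 0.1 log2 bin of difference, RFP-positive minus RFP-negative, for all 13433 genes tested (top), and the 38 imprinted genes as ticks by expressed allele (bottom), Slc22a18 at its fitted value. The imprinted genes spread over the range of most genes, with medians of 0.07 for paternal and −0.13 for maternal expression.

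The 2 RFP-positive arrays gave different counts, for the imprinted genes and over all genes alike. Set against the RFP-negative mean, replicate 1 was higher for 26 of the 38 genes and lower for 12, with a median of 0.15, while the median over all genes was 0.013. Replicate 2 was higher for 20 and lower for 18, with a median of 0.0018, against −0.099 over all genes. Over all genes tested, 6966 were higher on replicate 1 and 5865 on replicate 2. The imprinted median lay above the median of all genes on both arrays. Cdkn1c, Zrsr1, Mkrn3 and Ndn had the widest splits between these arrays.

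Genes that act with the imprinted genes were read from lists, with no gene past the limma test at an adjusted p of 0.05. Their counts without overlap stand against 18.8% of all genes higher and 21.6% lower. Of 20 genes tested from 26 other imprinted genes listed, 5 (25%) were higher and 3 (15.0%) lower without overlap, with a median of 0.09. Those of smallest p were Begain at 0.73, Kcnk9 at 0.60, Ddc at 0.79 and Gatm at −0.60. The first lies beside Dlk1, and Ddc, which encodes an enzyme of dopamine synthesis, lies beside Grb10.

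Of 18 genes tested from 20 that establish, protect or maintain imprints, 7 (38.9%) were higher and 3 (16.7%) lower without overlap, with a median of 0.26. Arid4a, a chromatin-binding gene, stood highest at 1.14 (limma unadjusted p = 0.016, adjusted p = 0.724). Next in order of limma p, not of size, came Dnmt3a, the de novo DNA methyltransferase, at 0.77. After it came Uhrf1, which recruits the maintenance methyltransferase, at 0.54, and Yy1, a zinc finger factor, at 0.63. Dnmt3a had 1.20 and 1.55 in RFP-positive cells, against 0.47 and 0.74 in RFP-negative cells.

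A list of 15 genes around IGF2 holds the ligand Igf1, receptors, receptor adaptors, secreted binding proteins and the Igf2bp RNA-binding proteins. Of 13 tested, 7 (53.8%) were higher and 1 (7.69%) lower without overlap, with a median of 0.24 and 0 at an unadjusted limma p below 0.05. Igf1, a ligand, was at 0.52, Igf2bp2, an RNA-binding protein of Igf2 transcripts, at 0.70, Igf1r, the signalling receptor, at 0.67, and Igfbp5, a secreted binding protein, at 1.06. Igfbp5 had 0.28 and 2.04 in RFP-positive cells, against 0.03 and 0.18 in RFP-negative cells, so RFP-positive replicate 2 held most of its difference.

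Markers of other cell types also differed in level between the fractions, with no gene past the adjusted threshold. Summed linear levels are over all genes of a list that have a probe. All 12 adipocyte genes were lower in RFP-positive cells without overlap (background 21.6%), with a median of −1.60, and their summed linear level was 23.6 and 17.5 in RFP-positive cells, against 54.7 and 65.6 in RFP-negative cells. Of 14 stromal and fibroblast genes tested, 9 (64.3%) were lower and 1 (7.14%) higher without overlap, with a median of −0.79 and summed levels of 212.6 and 211.4 in RFP-positive cells, against 232.5 and 264.0 in RFP-negative cells. Most of that sum is Fn1, and without it the sums were 69.0 and 59.5 in RFP-positive cells, against 81.5 and 128.7 in RFP-negative cells. Dcn and Postn, of that list, were well above background on no array. Dlk1 is also known as a marker of adipocyte precursors. The part of these cells in any imprinted gene's difference was not tested.

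The 8 blood genes tested had 5 (62.5%) higher and 1 (12.5%) lower without overlap. Differences were positive for 6 and negative for 2, Spi1 at −1.11 and Ptprc at −0.40, the latter with overlap. The 12 with a probe had summed levels of 17.8 and 15.5 in RFP-positive cells, against 11.2 and 12.1 in RFP-negative cells. Most of that sum is Tal1, and without it the sums were 6.1 and 4.1 in RFP-positive cells, against 2.9 and 2.9 in RFP-negative cells. The 12 endothelial genes had 7 (58.3%) higher and 0 lower without overlap and sums of 71.7 and 91.6 in RFP-positive cells, against 61.4 and 62.9 in RFP-negative cells. Their differences were positive for 8 and negative for 4, the lowest being Eng at −0.98 with overlap. Some of the gaps were small: the nearest arrays of Cdh5 read 3.761 in RFP-positive and 3.755 in RFP-negative cells. Of 7 pluripotency genes tested, 0 were higher and 2 (28.6%) lower without overlap. The pluripotency sum, 513 and 415 in RFP-positive cells, against 596 and 495 in RFP-negative cells, is mostly Nanog, whose arrays overlap. Without Nanog it was 13.5 and 11.5 in RFP-positive cells, against 15.9 and 11.6 in RFP-negative cells. Of 6 endoderm genes tested, 0 were higher and 3 (50%) lower without overlap. The endoderm sums were 14.0 and 14.4 in RFP-positive cells, against 14.3 and 28.5 in RFP-negative cells. The brightest gene of that list was Sox17, which is also in the endothelial list. Without Sox17 the sums were 7.5 and 6.0 in RFP-positive cells, against 9.6 and 21.5 in RFP-negative cells. Afp, Apoa1 and Hnf4a were not well above background. The part of these cell types was likewise not tested.

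**Figure D5:**
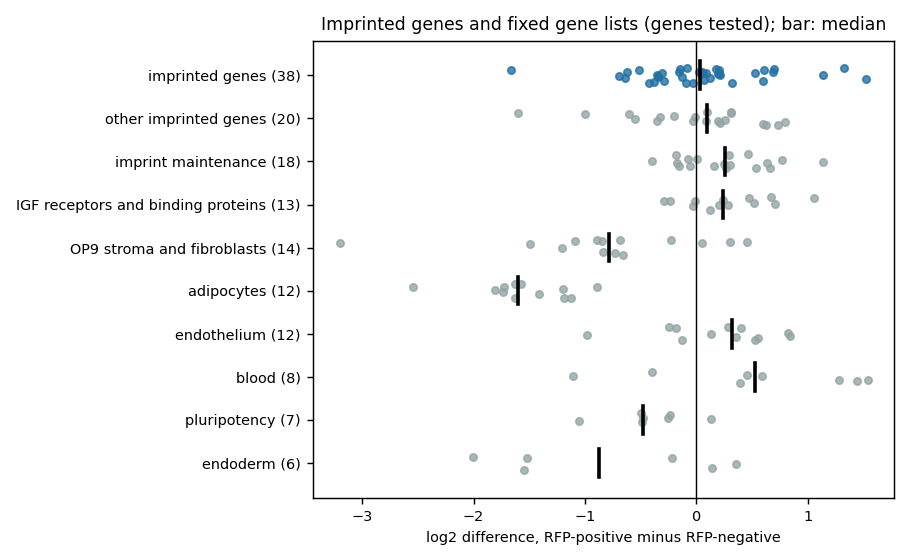
Log2 difference, RFP-positive minus RFP-negative, of each gene tested in the imprinted list and in 9 other lists, with the median as a bar and the number tested in brackets. Genes not above background in 1 fraction, such as Slc22a18, are at their fitted values. The imprinted genes centre on 0.04, and the adipocyte genes all lie below 0 with a median of −1.60.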

How the data were processed

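Total RNA of 2 RFP-positive and 2 RFP-negative samples was measured. The deposited intensity values are, per the file headers, processed signals of Agilent's Feature Extraction software, version 10.10.1.1. The deposited value table holds the same intensity values times 1 constant per array (5.82 and 5.39 for RFP-positive, 6.45 and 6.02 for RFP-negative), and its column medians were 133.9 and 142.3 for RFP-positive and 136.2 and 143.9 for RFP-negative. The sources used here do not give the basis of these constants. All 4 arrays lay on 1 slide and in 1 scan.

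Of 62976 spots per array, 3671 controls and, per array, 115 to 153 outlier spots were left out, and 0 were saturated. Between 55.2% and 59.3% of spots were well above background. Log2 signals were taken relative to each array's 75th percentile. Probes were named by RefSeq accession: of 55681 probes, 27235 had 1 symbol, 0 several and 28446 none. A gene's probe of highest mean was used, and testing required that probe to pass the scanner's background mark in both replicates of either fraction. The test was limma 3.58.1 in R 4.3.3 (lmFit, eBayes), two-sided, Benjamini-Hochberg adjusted over all 13433 genes. A run on data simulated from the fit's own prior checked only that planted changes were estimated at their size. The limma fit had 2 residual and 2.77 prior degrees of freedom, so the number of arrays limits the precision. Members and gene lists were chosen with earlier results of these data known. Values on every array are given for members without overlap, members well above background in 1 fraction alone, the Igf2-H19 and Dlk1-Meg3 pairs, and members whose probes disagree, and up to 4 genes of smallest p are named per list. Values of Cdkn1c, Phlda2, Nnat, Zrsr1, Dnmt3a, Igfbp5, Eng, Cdh5, Spi1 and Ptprc, and the sums without Tal1 and Sox17, were added after they were seen. Alternatives were other scalings, background correction, filters, the mean of probes, a replicate block and leaving out each array.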

Additional observations from a re-analysis of the deposited data

How the results depend on the processing

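No gene passed the adjusted limma threshold under any alternative run, members included. With the replicate block the counts were 0 among all genes (1038 at an unadjusted p below 0.05, smallest adjusted p 0.379) and 0 among the imprinted genes (4 and 0.627). Without RFP-positive replicate 1, 12 imprinted genes and 2753 of all genes had an unadjusted p below 0.05, and without RFP-negative replicate 1, 2 and 662. The replicate numbers were not shown to pair the samples. Across 13431 genes, the deviations of the 2 replicate 1 arrays from their fraction means had a correlation of 0.092. The count without overlap, 16 as reported, was 15 with scaling to the median (12 higher, 3 lower; background 41.0%), 14 with normexp (41.7%), 17 with no filter (34.8%) and 11, or 28.9%, with the mean of a gene's probes (39.1%). Leaving out 1 array, where fewer arrays have to be in order, gave 20 to 34. The lowest was without RFP-negative replicate 1 (20, background 65.3%). The highest were without RFP-positive replicate 1 (34, background 81.3%) and RFP-positive replicate 2 (30, background 66.4%). The count at least 2-fold apart, 2 as reported, was 1 with quantile normalization (background 1.27%) and 0 with normexp (background 0.0893%). It was 1 with the filter on all 4 arrays (background 0.459%), which removes Slc22a18. Leaving out 1 array gave 2 to 8, with 8 without RFP-positive replicate 1 (background 10.95%) and 4 without RFP-negative replicate 2 (2.89%). Of 17 named members under up to 12 alternatives, 202 differences kept their sign and 1 turned. Many of these runs could not turn a sign, so the count is no measure of stability. The deposited value table, the filters and the replicate block leave a difference as it was. Leaving out 1 array cannot turn a gene whose fractions do not overlap, as holds for all the named members but Igf2. The 1 that turned was Dlk1, at −0.040 with the mean of its probes, of which the dimmer one has the opposite sign. Kcnq1ot1 ranged between 0.75 (normexp) and 1.71, Grb10 between 0.77 and 1.62, Igf2r between 0.88 and 1.41, and the fitted value of Slc22a18 between −2.10 and −0.37 (normexp). Signal over background limits Slc22a18 and the 6 members not tested.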
